A study of Mus musculus with 22 samples.

Results

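The Notch pathway genes *Notch1*, *Notch2*, *Notch4*, *Rbpj*, *Dtx1*, *Hes1*, *Nrarp*, *Adam10*, *Mfng* and *Lfng* were followed across conventional dendritic cells (cDCs) of mouse spleen and mesenteric lymph node (MLN). They were picked by symbol from the 34047 genes of the RNA-seq count table, where all 10 had a row, and their loci were taken up again in the ATAC-seq of the splenic cells. RNA-seq was available for 16 sorted libraries, with 3 each of the splenic subsets (cDC1s and T-bet+ and T-bet- cDC2s), 2 each of MLN T-bet+ and T-bet- cDC2s, and 3 of MLN cDC1s. ATAC-seq, which counts transposase insertions in accessible chromatin, covered 6 splenic libraries, 2 of each subset. All cells came from Tbx21RFP-Cre reporter mice of 6 to 10 weeks, male and female, so that every group carried the allele, from which a red fluorescent protein (RFP) and Cre are expressed under the *Tbx21* (T-bet) locus. After exclusion of lineage+, CD64+ and Ly6C+ cells, CD11c+MHCII+ cells were split into CD11b+XCR1- cDC2s, either RFP+ (T-bet+) or RFP- (T-bet-), and CD11b-XCR1+ cDC1s. The labels do not say which libraries came from separate animals, so that p-values measure the spread between these samples, and in such bulk samples fewer expressing cells cannot be told apart from less RNA per cell.

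Notch receptors are cleaved at the cell surface by the metalloprotease ADAM10 after a ligand on a neighbouring cell pulls on them, and a second cut by γ-secretase frees the intracellular domain, which enters the nucleus and joins the DNA-binding protein RBPJ. In the spleen, Notch2 signalling is known to be required for a part of the CD11b+ cDC2 compartment that carries ESAM, and fringe glycosyltransferases tune which ligands a receptor answers. RBPJ binds the core TGGGAA, and *Hes1*, *Nrarp* and *Dtx1* are textbook target genes of the pathway in several lineages.

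The sums of the listed markers separated cDC1s from cDC2s. The 7 cDC1 markers summed to 151182 to 176509 in splenic cDC1, 3675 to 6055 in T-bet+ and 6007 to 14841 in T-bet- cDC2 libraries. The 5 cDC2 markers summed to 488 to 759, 33894 to 42595 and 51160 to 74300 in that order. *Batf3* alone of the cDC1 markers was not highest in splenic cDC1s, averaging 2851, 2901 and 1484. *Clec10a*, a cDC2 marker, averaged 10.1, 26.6 and 2166. *Xcr1* averaged 23546 normalized counts in splenic cDC1s against 151 in the T-bet+ and 249 in the T-bet- cDC2s, and *Tbx21* averaged 537 in splenic T-bet+ cDC2s against 34.7 in T-bet- cDC2s (125 against 18.0 in MLN). Here a normalized count is a read count scaled to a common library size over the 16 libraries. The 6 macrophage markers summed to between 14074 and 19449 in splenic T-bet- cDC2 libraries but to between 2039 and 2495 in T-bet+ and between 2448 and 4608 in cDC1 libraries. In MLN the same sums were 26226 to 45159, 906 to 4231 and 1753 to 5110, and the 3 monocyte markers were likewise highest in T-bet- cDC2s, at 10928 to 18570 in spleen and 7349 to 7607 in MLN. Of the 5 endothelial markers, *Pecam1* averaged 2111 to 2216 in the splenic subsets and 255 to 1587 in those of MLN, *Kdr* averaged 27.6 to 811 over the 6 groups, and *Cdh5*, *Tek* and *Emcn* did not exceed means of 8.25, 5.99 and 3.34. Libraries also differed in how counts related to the GC content of genes. The correlation of a library's deviation with GC was between 0.21 and 0.34 in 6 splenic libraries (all T-bet+ cDC2s, replicate 3 of T-bet- cDC2s, replicates 1 and 2 of cDC1s) and between -0.40 and 0.04 in the remaining splenic and all MLN libraries. Values with library class as a term, or within a class, stand below beside the results whose call or size they changed.

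The windows at which the chromatin results turn are shown first, as the plus strand of mm10. They are 150-base windows centred on peak summits, and capitals mark TGGGAA or its reverse complement TTCCCA. The first pair lies in *Dtx1*, a gene on the minus strand of chromosome 5 from 120680202 to 120711927, within introns, 14830 and 15390 bases from its start and 1694 and 1134 bases from an annotated internal transcript start (chr5:120697022-120697171 and chr5:120696462-120696611). These were the *Dtx1* windows with the greatest excess in T-bet+ cDC2s.
Dtx1 intronic window 1: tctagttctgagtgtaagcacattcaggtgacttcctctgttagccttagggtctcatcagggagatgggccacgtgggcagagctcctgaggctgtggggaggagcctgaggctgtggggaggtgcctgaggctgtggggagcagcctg
Dtx1 intronic window 2: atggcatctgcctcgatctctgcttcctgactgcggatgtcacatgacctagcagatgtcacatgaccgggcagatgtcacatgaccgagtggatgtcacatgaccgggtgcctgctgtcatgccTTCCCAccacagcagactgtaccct
The *Nrarp* window lies outside the gene, 10105 bases before its start (chr2:25170578-25170727), and the *Rbpj* window 14147 bases before the start of that gene (chr5:53451930-53452079). Both differed between the cDC2 subsets, in opposite directions, and neither holds the core.
Nrarp upstream window: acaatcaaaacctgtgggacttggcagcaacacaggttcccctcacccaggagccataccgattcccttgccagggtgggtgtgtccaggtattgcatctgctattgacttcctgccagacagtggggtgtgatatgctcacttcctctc
Rbpj upstream window: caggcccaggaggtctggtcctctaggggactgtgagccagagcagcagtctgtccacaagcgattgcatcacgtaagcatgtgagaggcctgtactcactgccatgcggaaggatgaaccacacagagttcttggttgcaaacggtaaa
The *Hes1* window (chr16:30065128-30065277), 137 bases from an annotated transcript start, holds the core preceded by G and is shown because it was called in no contrast.
Hes1 start window: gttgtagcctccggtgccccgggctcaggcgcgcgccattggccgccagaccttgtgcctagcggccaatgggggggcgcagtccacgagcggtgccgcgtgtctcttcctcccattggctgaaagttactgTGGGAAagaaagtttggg

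*Dtx1*, the member that varied most over the 6 subset-by-tissue groups, encodes Deltex1, a cytoplasmic E3 ubiquitin ligase that binds the intracellular domain of Notch. In splenic T-bet+ cDC2s its 3 libraries had 7479, 7775 and 8255 normalized counts. In T-bet- cDC2s they had 153, 203 and 216, and in cDC1s 5.01, 9.16 and 14.4. The 3 subsets were fully separated, and each step down was many times the spread within a subset. The log2 difference between T-bet+ and T-bet- cDC2s was 5.36 (SE 0.33, adjusted p = 4.4e-05 by edgeR's quasi-likelihood test over all genes), that between T-bet+ cDC2s and cDC1s was 9.69 (SE 0.41, adjusted p = 1.5e-06), and that between T-bet- cDC2s and cDC1s was 4.33 (SE 0.34, adjusted p = 3.3e-05). Among splenic libraries of the higher GC class alone, T-bet+ cDC2s exceeded T-bet- cDC2s by 5.18 (adjusted p = 8.8e-05).

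In MLN, the libraries of T-bet+ cDC2s had 790 and 351 normalized counts of *Dtx1*, those of T-bet- cDC2s 73.2 and 50.2, and those of cDC1s 4.02, 12.9 and 22.5. The order of the subsets was that of the spleen, again without overlap, but the T-bet+ level was far lower. T-bet+ cDC2s exceeded cDC1s by 5.46 on the log2 scale (SE 0.66, adjusted p = 0.0041). The excess of 3.16 over T-bet- cDC2s (SE 0.68) had an adjusted p of 0.25 by edgeR, whereas DESeq2 gave an adjusted p of 0.00022. Between tissues, *Dtx1* was 3.78 higher (log2, SE 0.53, adjusted p = 0.0027) in splenic than in MLN T-bet+ cDC2s, with no overlap. Without MLN T-bet+ replicate 2 the adjusted p was 0.066, in a fit in which 36 genes were called in all. The GC class and the tissue cannot be told apart within T-bet+ cDC2s, since all 3 splenic libraries were of one class and both MLN libraries of the other. With the class as a term over all 16 libraries, which takes its effect from the other subsets, the difference was 3.88 (adjusted p = 0.033). In T-bet- cDC2s the tissue difference was 1.62 (adjusted p = 0.065), and in cDC1s, where the gene was near the detection limit, it was -0.50 (adjusted p = 0.56). The test of whether the T-bet+ to T-bet- difference itself differed between tissues gave a log2 value of 2.16 (SE 0.65, adjusted p = 0.87).

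**Figure D1:**
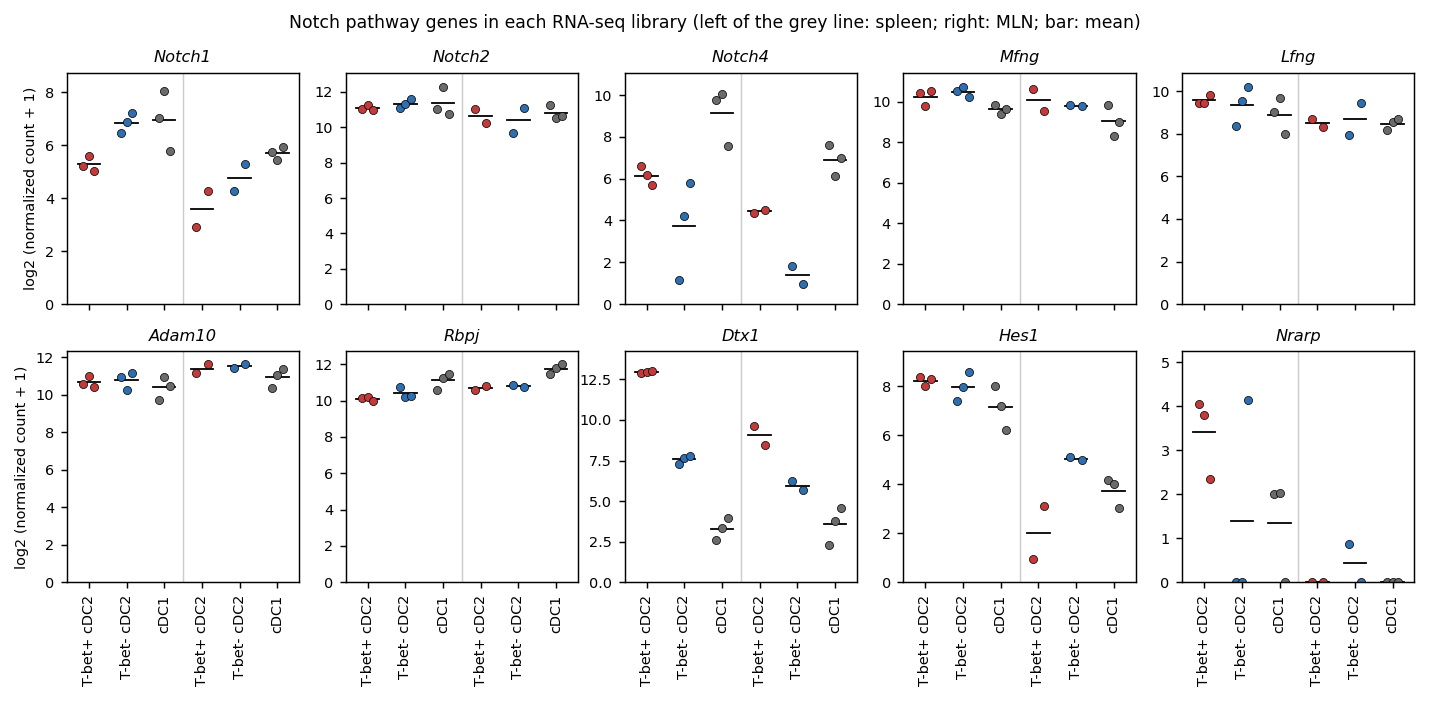
Level of the 10 Notch pathway genes, as log2 of normalized count + 1, in each of the 16 RNA-seq libraries, by subset and tissue. Each point is a library and each bar the mean of the log values. *Dtx1* falls from between 7479 and 8255 normalized counts in splenic T-bet+ cDC2s to at most 14.4 in splenic cDC1s, and *Hes1* is at 33.3 or less in every MLN library.

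*Hes1*, a transcriptional repressor and the best known direct target of Notch, passed the test between the tissues and not between the subsets. Splenic libraries had 330, 255 and 313 normalized counts in T-bet+ cDC2s, against 169, 252 and 388 in T-bet- cDC2s, and 262, 146 and 74.2 in cDC1s. MLN libraries had 0.931 and 7.63 in T-bet+ cDC2s, against 33.3 and 31.2 in T-bet- cDC2s, and 17.1, 15.02 and 7.21 in cDC1s. Every splenic library lay above every MLN library, while the subsets of the spleen overlapped. The log2 difference between spleen and MLN was 6.10 (SE 0.81, adjusted p = 0.0021) in T-bet+ cDC2s, 3.06 (SE 0.66, adjusted p = 0.017) in T-bet- cDC2s and 3.61 (SE 0.59, adjusted p = 0.003) in cDC1s. The T-bet- call was lost without either MLN T-bet- library (adjusted p of up to 0.16). With the GC class as a further term the differences were 4.94, 2.61 and 2.71 (adjusted p = 0.025, 0.015 and 0.019). Within a tissue no contrast of *Hes1* passed, but with the class as a term the excess of splenic T-bet- cDC2s over cDC1s went from 0.75 (adjusted p = 0.33) to 1.204 (adjusted p = 0.035). The largest, MLN T-bet+ against T-bet- cDC2s, was -2.92 (SE 1.02, adjusted p = 0.42) with no overlap, and the test of the tissue difference of that contrast gave 3.04 (SE 0.93, adjusted p = 0.87).

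*Nrarp*, which encodes a small ankyrin repeat protein that binds the Notch complex and limits it, was close to the floor of detection. Its read counts, not normalized, were 16, 14 and 4 in splenic T-bet+ cDC2s, against 0, 0 and 18 in T-bet- cDC2s, and 3, 3 and 0 in cDC1s. In MLN 1 read was counted in a T-bet- cDC2 library and 0 in the 6 others, so that *Nrarp* did not enter the MLN fit. With cDC1 libraries at or under 3 counts, splenic T-bet+ cDC2s were at least 3.40-fold higher on the normalized scale, taking 3 counts per library as the floor (adjusted p = 0.35). The corresponding bound over MLN T-bet+ cDC2s was at least 3.86-fold higher (adjusted p = 0.15). The fitted log2 value behind it, 6.47, ran from -0.028 to 6.86 over the alternatives, and GC class and tissue cannot be told apart there. With these counts no difference of *Nrarp* between the splenic cDC2 subsets was detected, and 1 T-bet- library held more reads than any T-bet+ library. That library was the only splenic T-bet- one of the higher GC class, as were all T-bet+ libraries, and those with 0 reads were of the lower class. The part of the class in these counts was not tested.

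Of the receptors, *Notch2* had the highest level per kilobase of exon in every group, and *Notch1* and *Notch4* lay far below it except for *Notch4* in splenic cDC1s. *Notch2* libraries had 2066, 2498 and 2021 normalized counts in splenic T-bet+ cDC2s, against 2199, 2550 and 3060 in T-bet- cDC2s, and 2101, 5068 and 1710 in cDC1s. MLN libraries had 2068 and 1230, 827 and 2211, and 2472, 1451 and 1573 in the same order of subsets. These ranges overlapped in every comparison. The log2 difference between splenic T-bet+ and T-bet- cDC2s was -0.24 (SE 0.37, adjusted p = 0.77), and an interval of 2 SE to either side ran from -0.99 to 0.50. No contrast of *Notch2* passed the test, so that the subsets that differed most in *Dtx1* were not separated by *Notch2* RNA.

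*Notch4*, a receptor best known from endothelium, was highest in cDC1s of both tissues. Splenic cDC1s had 877, 1067 and 187 normalized counts, T-bet+ cDC2s 95.1, 71.4 and 50.3, and T-bet- cDC2s 1.19, 17.8 and 54.2. MLN cDC1s had 192, 68.7 and 128, T-bet+ cDC2s 19.6 and 21.9, and T-bet- cDC2s 2.50 and 0.947. In both tissues every cDC1 library was above every cDC2 library. The 5 endothelial markers summed to between 1324 and 3027 in splenic cDC1 libraries, against 1803 to 3409 in T-bet- and 2109 to 2362 in T-bet+ cDC2s, and in MLN to between 354 and 526, against 1428 to 1664 and 1110 to 2439. These sums overlapped among the splenic subsets and were lowest in MLN cDC1s. In spleen they were mostly *Pecam1*, and the single markers differed in direction. *Tek*, near the floor, had its highest mean in cDC1s, at 5.99 in spleen (0 for either cDC2 subset). Its MLN means were 2.12 for cDC1s, 0.95 for the T-bet+ subset and 0 for the T-bet- subset. *Kdr*, *Cdh5* and *Emcn* were highest in a cDC2 subset of each tissue. Whether endothelial RNA had a part in *Notch4* was not tested. In spleen T-bet+ cDC2s were lower than cDC1s by a log2 value of -3.29 (SE 0.93, adjusted p = 0.035) and T-bet- cDC2s by -4.83 (SE 1.01, adjusted p = 0.01). In MLN the T-bet+ difference was -2.62 (SE 0.62, adjusted p = 0.049), and T-bet- cDC2s, with at most 3 counts per library, were at least 48.5-fold lower than cDC1s (adjusted p = 0.0062). The cDC1 library with 187 was the only splenic cDC1 library of the lower GC class, and among libraries of the higher class the splenic differences were -3.74 (adjusted p = 3.8e-05) and -4.15 (adjusted p = 0.00073).

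Between the cDC2 subsets *Notch4* did not pass. The splenic log2 difference was 1.54 (SE 0.91, adjusted p = 0.42) with overlapping libraries, and 0.46 (adjusted p = 0.82) with the GC class as a term. In MLN both T-bet+ libraries were above both T-bet- libraries, by at least 7.78-fold, with an adjusted p of 0.27 by edgeR and 0.029 by DESeq2. The T-bet+ to cDC1 calls were the least stable. The splenic one was lost with the replicate number as a block (-3.27, adjusted p = 0.097) and when any single T-bet+ library or cDC1 replicate 1 or 2 was left out, and its adjusted p ran from 1.1e-07 to 0.13 over all alternatives. For the MLN one it ran from 0.0012 to 0.22, and the call was lost with the block (adjusted p = 0.12) and without any single MLN cDC2 library or cDC1 replicate 1 or 3. The MLN T-bet- call was lost without either T-bet- library (adjusted p of up to 0.067), and the splenic one had an adjusted p of 0.052 with the block.

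*Notch1*, the receptor that drives T cell commitment, was low throughout. Splenic libraries had 36.3, 47.3 and 31.9 normalized counts in T-bet+ cDC2s, against 87.0, 115.7 and 146.7 in T-bet- cDC2s, and 129, 264 and 53.8 in cDC1s. MLN libraries had 6.52 and 18.1, 18.3 and 37.9, and 53.2, 42.9 and 60.4. Splenic T-bet+ cDC2s were the lowest subset in every library, without overlap with the other two. The log2 difference from cDC1s was -1.95 (SE 0.55, adjusted p = 0.035, and 0.003 to 0.12 over all alternatives), and was lost with the replicate block (-1.82, adjusted p = 0.071) and without any single T-bet+ library or cDC1 replicate 1 or 2. That from T-bet- cDC2s was -1.59 (SE 0.54) with an adjusted p of 0.14 by edgeR, 0.042 by DESeq2 and 0.033 with the GC class as a term. In MLN, where T-bet+ libraries were again the lowest, the differences were -2.04 from cDC1s (adjusted p = 0.12) and -1.20 from T-bet- cDC2s (adjusted p = 0.67).

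*Rbpj*, whose product is the DNA-binding partner of all Notch receptors, also had its highest means in cDC1s. Splenic cDC1s had 1560, 2396 and 2867 normalized counts, T-bet+ cDC2s 1135, 1178 and 988, and T-bet- cDC2s 1738, 1187 and 1207. MLN cDC1s had 2871, 3492 and 4095, T-bet+ cDC2s 1536 and 1777, and T-bet- cDC2s 1886 and 1723. No T-bet+ library reached a cDC1 library of its tissue, and the log2 difference was -1.04 in spleen (SE 0.27, adjusted p = 0.025) and -1.04 in MLN (SE 0.24, adjusted p = 0.046). T-bet- cDC2s, at -0.72 (adjusted p = 0.11) and -0.88 (adjusted p = 0.078), did not pass, although the splenic difference did with the GC class as a term (-0.84, adjusted p = 0.033). The splenic T-bet+ call was lost with the replicate block (-1.04, adjusted p = 0.08) and without any single T-bet+ library or cDC1 replicate 2 or 3, with an adjusted p of 0.0063 to 0.1 over all alternatives, and the MLN one, lost with the block (adjusted p = 0.15) and without any single MLN cDC2 library or cDC1 replicate 2 or 3, ranged from 0.0043 to 0.23. Between splenic T-bet+ and T-bet- cDC2s the difference was -0.32 (SE 0.27, adjusted p = 0.59), with an interval of 2 SE to either side from -0.86 to 0.22.

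The genes that process or modify the receptor were expressed in all groups and passed in no contrast by edgeR. *Mfng*, a fringe glycosyltransferase, had 1388, 890 and 1486 normalized counts in splenic T-bet+ cDC2s, against 1470, 1719 and 1194 in T-bet- cDC2s, and 930, 681 and 805 in cDC1s. T-bet- cDC2s lay above cDC1s in every library, by 0.86 on the log2 scale (SE 0.27, adjusted p = 0.056), which was the closest to the threshold and passed by DESeq2 (0.87, adjusted p = 0.038). Its MLN libraries ranged from 318 to 1570, and with a block by the number in the library names it passed against MLN cDC1s in T-bet+ (0.92, adjusted p = 0.043) and T-bet- cDC2s (1.19, adjusted p = 0.015). *Lfng*, a second fringe enzyme, ranged from 249 to 1178 in spleen and from 241 to 703 in MLN, with more spread within T-bet- cDC2s (325, 736 and 1178) than between subset means. *Adam10*, the sheddase of the first cut, ranged from 849 to 2328 in spleen and from 1324 to 3175 in MLN. Its log2 differences among splenic subsets were between -0.13 and 0.36, each with an SE of 0.35.

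Per kilobase of exon, the scale on which genes can be compared, the leading member changed with the subset. In splenic T-bet+ cDC2s the order of mean normalized counts per kilobase was *Dtx1* (1487 ± 74.3, SD, n = 3), *Mfng* (442 ± 113), *Adam10* (340 ± 73.6), *Lfng* (306 ± 50.4), *Notch2* (204 ± 24.4), *Hes1* (147 ± 19.4), *Rbpj* (86.3 ± 7.81), *Notch4* (8.97 ± 2.78), *Nrarp* (4.23 ± 2.35) and *Notch1* (2.70 ± 0.56). Neighbours from *Mfng* to *Lfng* and from *Notch4* to *Notch1* differed by less than their combined SDs, and *Dtx1* stood clear. In splenic cDC1s the order was *Adam10* (290 ± 117), *Mfng* (284 ± 43.8), *Notch2* (275 ± 170), *Lfng* (209 ± 113), *Rbpj* (178 ± 51.9), *Notch4* (88.1 ± 57.5) and *Hes1* (78.8 ± 46.4), with each neighbour inside the combined SDs of the pair, and *Dtx1* (1.80 ± 0.889) was next to last. In MLN T-bet+ cDC2s *Adam10* (557 ± 127) and *Mfng* (409 ± 204) led, and *Dtx1* (108 ± 58.8) and *Rbpj* (130 ± 13.4) were alike within their spread.

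Counted over the members, 1 of 10 was called between splenic T-bet+ and T-bet- cDC2s (*Dtx1*), where 5.38% of the 14377 genes tested were called at an adjusted p under 0.05. Against splenic cDC1s, 4 of 10 were called for T-bet+ cDC2s (*Dtx1* higher, *Notch1*, *Notch4* and *Rbpj* lower), beside 18.2% of all genes, and 2 of 10 for T-bet- cDC2s (*Dtx1* higher, *Notch4* lower), beside 15.9%. In MLN, 0 of the 9 members tested were called between the cDC2 subsets, where edgeR called 0% of 15298 genes. There, 1444 genes had an unadjusted p under 0.05, and DESeq2 called 328 genes, *Dtx1* and *Notch4* among them. Against MLN cDC1s, 3 of 9 were called for T-bet+ cDC2s (*Dtx1*, *Notch4*, *Rbpj*), beside 6.22%, and 1 of 9 for T-bet- cDC2s (*Notch4*), beside 5.79%. The contrasts within a tissue share libraries. Between spleen and MLN, 2 of 10 members were called in T-bet+ cDC2s (5.09% of 16795 genes), 1 of 10 in T-bet- cDC2s (5.95%) and 1 of 10 in cDC1s (11.7%). The test of the tissue difference between the cDC2 subsets called 0 of 10 members and 0.00595% of all genes, which is 1 gene, with 847 at an unadjusted p under 0.05. The median log2 difference of the members was -0.04 between splenic T-bet+ and T-bet- cDC2s, beside -0.01 over all genes, and 1.35 between splenic and MLN T-bet+ cDC2s, beside -0.0027. With the GC class as a term the splenic cDC2 median was -0.42, beside 0.0068 over all genes. The tissue median of T-bet+ cDC2s was then -0.11, beside -0.08 over all genes, and *Dtx1* and *Hes1* were again the members called between tissues.

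**Figure D2:**
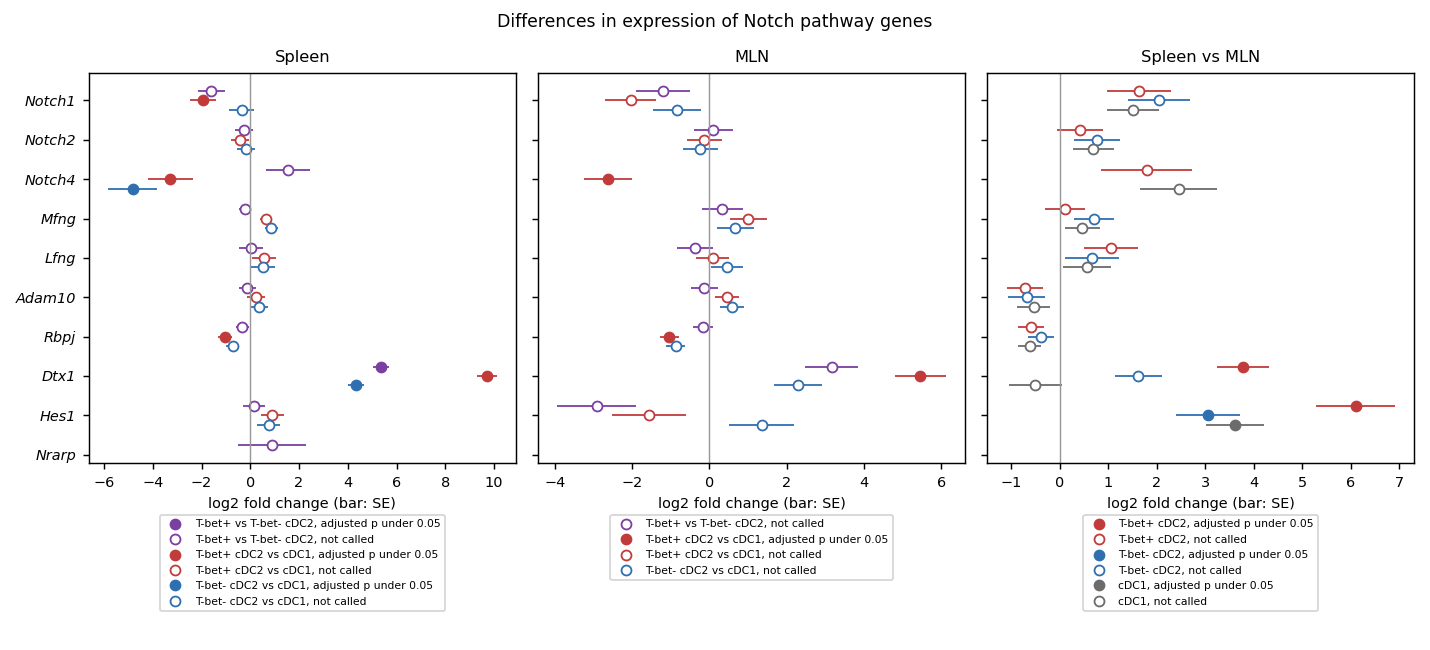
Log2 difference, with 1 SE to either side, of each member in the 9 comparisons of subsets and tissues. Filled points passed an adjusted p of 0.05, and comparisons with a group at or under 3 counts in every library are left out. *Dtx1* reaches 9.69 between splenic T-bet+ cDC2s and cDC1s, and *Hes1* has the greatest differences between tissues, up to 6.10.

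A window was assigned to a member when that gene was the closest to its peak within 50000 bases. By this rule 153 of the 177956 summit windows belonged to the 10 loci, and 149 of them were tested. By position, 26 lay within 2000 bases of an annotated transcript start, 86 in introns, 5 in exons and 36 outside genes. Between T-bet+ and T-bet- cDC2s, 16 windows were called (adjusted p under 0.01, log2 difference beyond 0.5 in size), 13 of them in favour of T-bet+ cDC2s. That was 10.7% of the member windows beside 6.28% of all windows. Against cDC1s, 37 were called for T-bet+ cDC2s (27 higher and 10 lower), or 24.8% beside 23%, and 25 for T-bet- cDC2s (13 higher), or 16.8% beside 17.9%. The balance of the T-bet+ contrast with cDC1s rested on the scaling. Scaled by library size alone, which moved the median of all windows from -0.0049 to -0.18, it was 18 higher and 16 lower. *Dtx1* held 7 of the 16 windows called between the cDC2 subsets, with 8 of the 153 windows.

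At *Dtx1*, T-bet+ cDC2s exceeded T-bet- cDC2s in 7 of 8 windows and cDC1s in all 8 (6 when scaled by library size alone), and 0 of 8 were called between T-bet- cDC2s and cDC1s. The first intronic window printed above had normalized window counts, scaled over the 6 ATAC-seq libraries, of 339 and 238 in T-bet+ cDC2s, against 8.68 and 8.91 in T-bet- cDC2s, and 10.5 and 18.4 in cDC1s. T-bet+ libraries stood apart from all others, with a log2 difference of 5.01 from T-bet- cDC2s (SE 0.32, adjusted p = 4.4e-20) and 4.33 from cDC1s (adjusted p = 8.3e-20). The second, which holds the core, had 57.5 and 58.9, 3.26 and 0.891, and 7.32 and 5.75 in the same order (4.80, SE 0.55, adjusted p = 4.6e-10). Further called windows at 14399, 17829, 23835, 24311 and 26603 bases from the start had differences of 3.35, 2.98, 1.98, 1.98 and 2.42. The window 2565 bases before the start, the one nearest to it, had 41.2 and 38.7, 21.7 and 12.5, and 12.5 and 18.4, a T-bet+ excess of 1.24 over T-bet- cDC2s that was not called (adjusted p = 0.026). Summed over the 8 windows, the counts were 836 and 714 in T-bet+ cDC2s, against 130 and 95.4 in T-bet- cDC2s, and 100 and 145 in cDC1s. The RNA of T-bet- cDC2s exceeded that of cDC1s at this gene, whereas these sums overlapped.

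**Figure D3:**
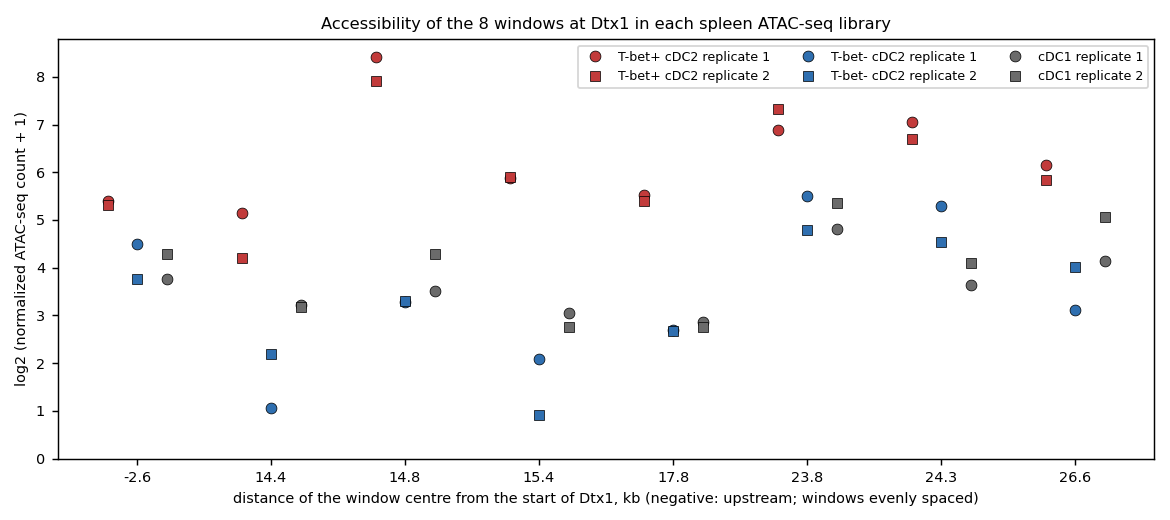
Normalized counts of the 8 *Dtx1* windows in each of the 6 splenic ATAC-seq libraries, by distance from the start of the gene in kilobases. In the window 14830 bases inside, T-bet+ cDC2 libraries reach 339 and 238 and the other 4 libraries do not exceed 18.4.

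*Rbpj*, which spans chromosome 5 from 53466152 to 53657362 and has 50 windows, held 5 windows with more and 2 with fewer counts in T-bet+ cDC2s when set against T-bet- cDC2s. That was 14.3% of its tested windows, beside 6.28% of all windows. Scaled by library size alone, 3 were higher and 2 lower. The upstream window printed above had 2.87 and 7.36 in T-bet+ cDC2s, against 70.6 and 72.2 in T-bet- cDC2s, and 4.18 and 13.8 in cDC1s. It was thus high in T-bet- cDC2s alone among the 3 subsets, with log2 differences of -3.76 between T-bet+ and T-bet- cDC2s (adjusted p = 2.5e-09) and 3.001 between T-bet- cDC2s and cDC1s (adjusted p = 4.3e-08). Macrophage and monocyte marker RNA was also highest in T-bet- cDC2s, and its part in this window was not tested. Against cDC1s, 11 *Rbpj* windows were higher and 2 lower in T-bet+ cDC2s (6 and 5 when scaled by library size alone), whereas *Rbpj* RNA was lower. The 13 called were 26.5% of those tested, beside 23% of all windows. Of the higher ones, 5 lay 516 to 1571 bases before an internal transcript start. The window 68 bases from a neighbouring transcript start had 325 and 345, 361 and 314, and 326 and 356 in the 3 subsets and was not called in any contrast (log2 differences of -0.01, -0.03 and -0.02, SE 0.17 each).

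At *Notch2*, with 40 windows, 1 was called between the cDC2 subsets. It lay in an intron 42545 bases from the start, at chr3:98055997-98056146, with 8.62 and 1.84 in T-bet+ cDC2s, against 29.3 and 33.0 in T-bet- cDC2s and 32.4 and 41.4 in cDC1s, and its difference of -2.57 (adjusted p = 0.00012) was lost without T-bet+ replicate 2 (adjusted p = 0.016). Against cDC1s, *Notch2* had 4 windows higher and 6 lower in T-bet+ cDC2s, and 5 higher and 5 lower in T-bet- cDC2s, or 26.3% of its tested windows each time, beside 23% and 17.9% of all windows. Between the cDC2 subsets it was 2.63%, beside 6.28%. The *Nrarp* upstream window had 52.7 and 24.9 in T-bet+ cDC2s, against 8.68 and 6.24 in T-bet- cDC2s and 41.8 and 50.6 in cDC1s. T-bet- cDC2s were low and the other subsets overlapped. The difference between cDC2 subsets was 2.37 (SE 0.45, adjusted p = 8.7e-05), lost without T-bet+ replicate 1 (adjusted p = 0.028), and that between T-bet- cDC2s and cDC1s was -2.63 (adjusted p = 3.1e-06).

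The *Hes1* start window had 363 and 272, 267 and 298, and 292 and 274 in the 3 subsets. Libraries of all subsets overlapped, with a difference of 0.17 between cDC2 subsets (adjusted p = 0.62), and none of the 6 *Hes1* windows was called in any contrast, although scaling by library size alone called 1 lower in T-bet+ cDC2s than in cDC1s. MLN chromatin was not measured, so that the tissue difference of *Hes1* RNA has no counterpart here. The *Lfng* window at the gene start, with 2 cores, was not called between cDC2 subsets either (-0.30, adjusted p = 0.33). Of 13 *Lfng* windows, 2 outside the gene were higher than in cDC1s in both cDC2 subsets, whereas 1 was higher and 1 lower in T-bet+ cDC2s when scaled by library size alone. The 2 were 15.4% of those tested, beside 23% of all windows for T-bet+ and 17.9% for T-bet- cDC2s. *Notch1* had 2 overlapping intronic windows higher in T-bet+ cDC2s than in cDC1s, while its RNA was lower, and *Adam10* had 2 windows lower. These were 20% and 15.4% of their tested windows, below the 23% of all windows called in that contrast. Scaled by library size alone, 1 *Notch1* window was called higher. *Mfng* (2 windows) and *Notch4* (5 windows) had 0 calls, but the *Notch4* windows lay near the far end of the gene, 2229 to 2996 bases from the start of *Gpsm3*, and the nearest window to the start of *Notch4* was 8589 bases away. A gene start without a window cannot be read as closed in these data. Of 3971 protein-coding genes with a mean RNA count over 1000, only 1894 (47.7%) had a window within 500 bases of their start.

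**Figure D4:**
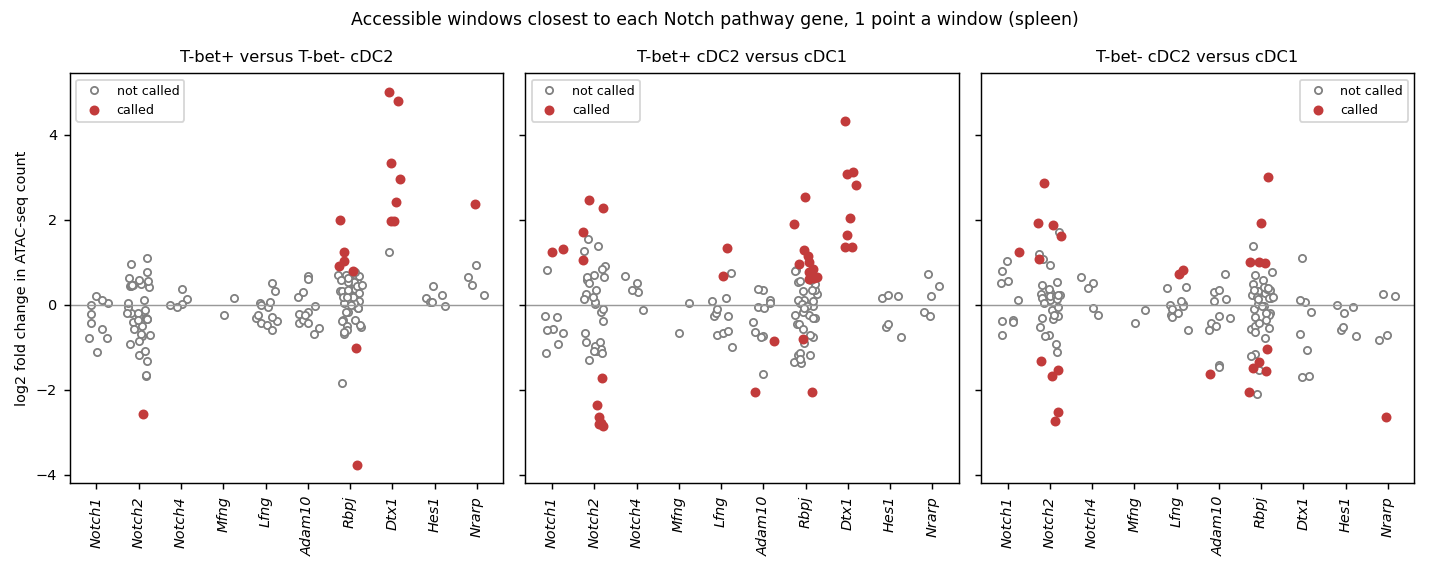
Log2 difference of each of the 149 tested windows at the 10 loci in the 3 contrasts of splenic ATAC-seq, with called windows filled. At *Dtx1*, 7 of 8 windows are called higher against T-bet- cDC2s, all 8 against cDC1s and 0 between T-bet- cDC2s and cDC1s, while *Rbpj* and *Notch2* hold called windows of both signs.

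The RBPJ core TGGGAA was in 23 of the 153 member windows on either strand (15.03%), beside 13.7% of all windows and 25.6% of 32851 RefSeq promoters of GRCm38.p6. The longer GTGGGAA, which contains the core, was in 13 (8.50%), beside 3.51% of all windows and 6.38% of promoters. *Dtx1* had the core in 4 of its 8 windows. The T-box sequence AGGTGTGA was in 1 member window (0.654%, 0.714% of all windows) and the Runx sequence TGTGGTT in 5 (3.27%, 5.23% of all), including the *Rbpj* upstream window. Both strands were searched for each. RefSeq promoters, from 250 bases before to 50 after a start, were at hand for *Nrarp*, *Notch1*, *Notch2*, *Rbpj*, *Dtx1*, *Lfng*, *Adam10* and *Notch4*. Those of *Lfng* and *Rbpj* held the core and the others did not.

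Beyond the members, 58 other genes of the pathway or known to depend on Notch2 in cDC2s were listed, of which 57 had a row in the count table. Of 47 tested in spleen, 1 was higher and 2 were lower in T-bet+ cDC2s when compared with the T-bet- subset, or 6.38% beside 5.38% of all genes. *Esam*, an adhesion molecule that marks Notch2-dependent cDC2s, had 3255 ± 531 against 1165 ± 39.4 normalized counts (SD, n = 3 each, log2 difference 1.49, adjusted p = 0.0079). *Ctbp2*, a corepressor, and *Dtx4*, a Deltex relative, were lower by -1.30 (adjusted p = 0.044) and -1.28 (adjusted p = 0.049). *Dtx4* thus had the opposite sign to *Dtx1*. Against cDC1s, 6 were higher and 9 lower in T-bet+ cDC2s (31.9%, beside 18.2%), and 6 higher and 1 lower in T-bet- cDC2s (14.9%, beside 15.9%). Among those averaging 50 normalized counts or more, the coreceptor gene *Cd4* and the lectin gene *Clec4a4* differed most upwards in T-bet+ cDC2s, by 4.17 (adjusted p = 5.3e-06) and 9.58 (adjusted p = 3e-05). The ligand gene *Jag2* and the coactivator gene *Maml2* were lower by -3.17 and -3.21 (adjusted p = 0.049 and 0.0056). The related *Maml1* and *Maml3* were called higher, averaging 173 and 166 normalized counts against 64.4 and 25.0 in cDC1s. They were called higher in splenic T-bet- cDC2s as well, by 1.565 and 3.191. The lower group also held 3 γ-secretase subunit genes, *Aph1a*, *Aph1b* and *Aph1c*. The excess of *Cd4* and *Clec4a4* over cDC1s was shared by the splenic T-bet- subset, by 4.32 (adjusted p = 5e-06) and 8.49 (adjusted p = 5.2e-05). *Esam* was called higher there as well. *Cd4* averaged 9495 normalized counts in the T-bet+ subset against 10564 in the T-bet- subset, and *Clec4a4* 3450 against 1616. Neither of these genes was called between the splenic cDC2 subsets.

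In MLN, 0 of 46 tested passed between the cDC2 subsets, where 0% of 15298 genes were called. *Esam* averaged 2324 ± 1082 normalized counts in MLN T-bet+ and 3270 ± 431 in T-bet- cDC2s (SD, n = 2 each). In MLN cDC1s it averaged 2467 ± 1169 (n = 3). The splenic T-bet+ excess of *Esam* was thus not seen in MLN. *Esam* was called lower in spleen than in MLN in T-bet- cDC2s and in cDC1s. Against MLN cDC1s, 4 were higher and 1 lower in T-bet+ cDC2s (10.9%, beside 6.22%), and 5 higher and 1 lower in T-bet- cDC2s (13%, beside 5.79%). The largest excesses in T-bet+ and T-bet- cDC2s were those of *Clec4a4* (8.91 and 6.27), *Maml3* (6.83 and 6.69) and *Cd4* (4.41 and 3.98). *Dll4*, which encodes a Notch ligand, was among the higher ones in both, by 3.24 (adjusted p = 0.0043) and 3.95 (adjusted p = 0.002), with 339 ± 94.4 and 544 ± 27.6 normalized counts in T-bet+ and T-bet- cDC2s (SD, n = 2 each) against 36.5 ± 12.4 in cDC1s (n = 3). Between tissues, of 50 tested, 1 was higher and 2 lower in splenic than in MLN T-bet+ cDC2s (6%, beside 5.09%), 2 higher and 4 lower in T-bet- cDC2s (12%, beside 5.95%), and 5 higher and 6 lower in cDC1s (22%, beside 11.7%). *Dll4* was lower in splenic than in MLN T-bet- cDC2s, at 24.5 ± 3.26 against 544 ± 27.6 (-4.46, adjusted p = 0.013).

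The genes whose pattern over the 6 subset-by-tissue groups was most like that of a member were found among 11086 genes by the root mean square difference of centred log2 group means, as a description only. For *Dtx1* they were *Bmp2* (0.942) and *Mapk12* (0.978), for *Notch4* *Cacna1e* (0.760) and *Ubtd2* (0.773), for *Hes1* *Cd5l* (0.57) and *Chil3* (0.673), and for *Nrarp* *Dusp1* (0.203) and *Jun* (0.234). *Notch1* was nearest to *Plcb3* (0.318) and *Scarb1* (0.326), and *Rbpj* to *Tor3a* (0.0887) and *Dnajc13* (0.108). The flat patterns of *Notch2*, *Adam10*, *Mfng* and *Lfng* were matched to within 0.1 by *Pa2g4* and *Ftsj1*, *Fam120b* and *Rbm4b*, *Rap1a* and *Ing3*, and *Zc3h10* and RP23-325M7.3.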

How the data were processed

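Per the labels and the study's methods, cells were sorted from spleen or MLN, RNA was amplified by the SMARTer method and sequenced as read pairs, and ATAC-seq used 50000 sorted cells. For RNA-seq, cells of 2 mice were pooled per sample. The labels give RFP+ cells as T-bet+, whereas a sentence of the methods states the reverse, and *Tbx21* levels went with the labels. The authors deposited raw read counts per gene (HISAT2 2.1.0 to mm10, uniquely aligned reads, GENCODE vM17, Rsubread) and raw counts of shifted ATAC-seq reads (Bowtie2 2.2.5) in peaks and in 150-base summit windows, with peaks called by MACS2 over all replicates together. The BED files hold window and peak positions and were used for those alone. RNA-seq libraries held 20993220 to 29006549 counted reads, and ATAC-seq libraries 7270164 to 10081555 window counts.

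Counts were tested with edgeR 4.0.16 (filterByExpr, TMM, quasi-likelihood test) in a fit per tissue with subset as the term (9 and 7 libraries, 14377 and 15298 genes), in a fit of all 16 libraries (16795 genes) and in a fit of the 6 ATAC-seq libraries (166547 windows), with Benjamini-Hochberg adjustment over all features. RNA calls required an adjusted p under 0.05 and ATAC calls an adjusted p under 0.01 with a log2 fold change beyond 0.5 in size. SE is the absolute log2 fold change divided by the root of F. Normalized counts are counts scaled by TMM to the mean effective library size. No libraries were identical. Same-numbered T-bet+ cDC2 and cDC1 libraries deviated together in spleen (correlations of 0.161 to 0.303) and in MLN (0.553 and 0.465), which no label explains. The fit with the replicate number as a block stands beside each call it changed. Exon lengths, positions and annotation are of GENCODE M21 on GRCm38, and promoter sequences of RefSeq. Scripts were tested on simulated data. DESeq2 1.42.0, filters, replicate blocks, single libraries left out and library class were tried as alternatives. Genes named outside the members were drawn by size (per comparison, up to 4 called genes of largest difference among those averaging 50 normalized counts or more). Not all genes so drawn are named, least of all between tissues, and some named genes are also given in comparisons outside that rule. All called genes are counted. *Aph1a*, *Aph1b* and *Aph1c*, and *Maml1* and *Maml3* in splenic T-bet+ cDC2s, were named after their values were seen. The members, gene lists and rules were chosen with earlier results of these data known. The strand setting of the counting is not given in the sources used here, so that reads of overlapping or antisense genes at *Notch1*, *Notch2*, *Notch4*, *Rbpj* and *Nrarp* cannot be told apart from theirs, and *Rbpj* has pseudogene copies that can take up reads.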

Additional observations from a re-analysis of the deposited data

How the results depend on the processing

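No called result changed direction under any alternative. *Dtx1* was called in all 3 splenic contrasts under each of 17 alternatives, except that it did not enter the fit when at least 10 counts were required in every library. Under that filter the members called were 0, 2 and 0 in the 3 splenic contrasts (T-bet+ against T-bet- cDC2s, T-bet+ cDC2s against cDC1s, T-bet- cDC2s against cDC1s; otherwise 1, 4 and 2), 1 and 0 against MLN cDC1s (otherwise 3 and 1), and 0 in each of the 3 tissue contrasts, since members with low counts in a subset were not tested. Of all genes, that filter called 5.68%, 17.5% and 14.7% in the splenic contrasts and 6.04% and 4.9% against MLN cDC1s. DESeq2 called 2 members between the cDC2 subsets in spleen (4.42% of all genes) and 2 in MLN (1.21%). It called 3 in splenic (9.19%) and 3 in MLN T-bet- cDC2s (6.41%) against cDC1s. Between tissues it called 4 in T-bet- cDC2s (6.59%) and 3 in cDC1s. With no filter on low counts, 2 members were called between the MLN cDC2 subsets (2.05% of all genes) and 2 in MLN T-bet- cDC2s against cDC1s (7.45%). Between tissues 3 were called in T-bet- cDC2s (7.15%), 2 in cDC1s, and 1 in the tissue difference. With library class as a term, 2 and 4 were called in the contrasts of splenic T-bet- cDC2s with T-bet+ cDC2s and with cDC1s, beside 4.67% and 19.1% of all genes. A fit of the compared subsets alone called 1 in MLN T-bet+ cDC2s against cDC1s, beside 4% of all genes. The newer quasi-dispersion estimate of edgeR, added after the data were seen, called 3 between tissues in T-bet- cDC2s and 3 in cDC1s. An adjusted p under 0.01 left 1 in T-bet+ cDC2s against cDC1s in spleen (9.95% of all genes), 1 in MLN (1.86%) and 0 between tissues in T-bet- cDC2s. The causes of these shifts were not tested. Counts given without a share, here and for single libraries left out, are no result about the members. The ranges of calls over all genes are given below.

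Leaving out single libraries gave 1 to 4 members in splenic T-bet+ cDC2s against cDC1s, 1 to 2 in MLN T-bet+ cDC2s against cDC1s, 0 to 1 in MLN T-bet- cDC2s against cDC1s, and between tissues 1 to 2 in T-bet+ cDC2s, 0 to 2 in T-bet- cDC2s and 1 to 3 in cDC1s. Correlations of same-numbered deviations ran from -0.625 to 0.303 in spleen, from -0.113 to 0.553 in MLN and from -0.137 to 0.08 in ATAC-seq. By replicate number they were above 0.1 in every pair only between T-bet+ cDC2s and cDC1s. That held in spleen (0.161 to 0.303) and more strongly in MLN (0.553 and 0.465). With the number as a replicate block, 1 member was called in each splenic contrast with cDC1s and 1 in MLN T-bet+ cDC2s against cDC1s. Of all genes, that block called 13.4% (T-bet+) and 11.2% (T-bet-) in the splenic contrasts and 3.52% in the MLN one. A replicate block by the number in the MLN library names called 4 in MLN T-bet- cDC2s against cDC1s, and 2477 genes in all.

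Of member windows, 16, 37 and 25 were called in the 3 ATAC-seq contrasts. At least 10 counts in every library left 7, 22 and 12, where 7606, 20675 and 15942 of 93281 windows were called in all. All windows within 50000 bases of a member, a larger set (18 against 8 at *Dtx1*, 58 against 40 at *Notch2*), gave 27, 61 and 41. These counts therefore cannot be read as more calls than the 16, 37 and 25. DESeq2 called 24 in T-bet+ cDC2s against cDC1s, an adjusted p under 0.05 with no fold threshold 57, and whole peaks gave 16 in T-bet- cDC2s against cDC1s. These counts, and those with single libraries left out, stand without the share of all windows and are no result about the loci. Single libraries left out gave 11 to 16, 24 to 38 and 14 to 27. Over all genes, calls between the splenic cDC2 subsets were 774, with 1413 by DESeq2, 1521 with no filter, 356 with the replicate block, 272 at an adjusted p under 0.01 and 307 to 1257 without single libraries. Between the MLN cDC2 subsets they were 0, with 554 unfiltered, 130 with the block by library name and 28 with the newer estimate. Calls ranged over all alternatives from 1431 to 3373 and from 1199 to 3077 in the splenic contrasts of T-bet+ and T-bet- cDC2s with cDC1s (2613 and 2279 otherwise), from 285 to 2440 and from 177 to 2477 in those of MLN (952 and 885), and from 36 to 2875, 186 to 2435 and 485 to 3513 between tissues in the T-bet+ subset, the T-bet- subset and cDC1s (855, 1000 and 1961). Over all windows they ranged from 4844 to 18870, 20675 to 53101 and 15942 to 43829 (10460, 38316 and 29773). *Nrarp*, with 1 read in all MLN libraries together, could not be compared there.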
